A study of Mus musculus with 2 samples.

Results

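The miR-379 to miR-410 cluster is the distal group of miRNA genes in the imprinted Dlk1-Dio3 region of mouse chromosome 12. Its members were taken by position alone, as every listed precursor between 109.7 and 109.76 Mb of that chromosome in the mm10 build, which gave 39 of 1187 precursors. Small RNA was sequenced from ischemic hindlimb muscle in 2 libraries, both taken 1 day after the femoral artery was removed by surgery. The hypercholesterolemic library (HC) came from ApoE-/- mice, which the series' design text describes as Apoe-/- mice fed a high fat diet, and the normocholesterolemic library (NC) came from C57Bl/6 control mice. The comparison addresses how miRNA levels in ischemic muscle differ between hypercholesterolemic and normocholesterolemic mice. Genotype and diet change together between the libraries and cannot be told apart, and the sources used here do not give the age and sex of the mice, the number of mice behind each library or the diet of the controls. With 1 library per group there is no measure of the spread between animals, so no difference below was tested. The intervals given are 95% intervals of counting error only, and since PCR copies could not be recognised by molecular identifiers, reads are not independent molecules and the true error is larger.

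The cluster is expressed from the maternal chromosome as part of long noncoding transcripts, and its hairpins are thought to have arisen by repeated tandem duplication, so that many members resemble each other in sequence. Each hairpin is cut by Drosha and Dicer into a short duplex, and 1 or both strands enter Argonaute, where the seed near the 5′ end pairs with target mRNAs. The cluster is known for high levels in brain and placenta and for expression in developing and regenerating skeletal muscle, where MEF2 transcription factors activate the locus. Antisense inhibition of its members miR-329, miR-487b, miR-494 or miR-495 has been reported to improve blood flow recovery after hindlimb ischemia in mice.

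The mature sequences of the 11 members with a mean of at least 10 CPM (counts per 1e6 counts) over both libraries are shown first, since they hold most of the cluster's reads and the largest well-counted differences. They are followed by sequences of less abundant members that share a seed with one of them, and by miR-376a-3p for comparison within the miR-376 family. Sequences are those of RefSeq for GRCm38.p6, written 5′ to 3′, with the seed (bases 2 to 8) in capitals. The deposited counts are per hairpin and do not separate the 5p and 3p arms.
miR-379-5p: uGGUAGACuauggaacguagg
miR-379-3p: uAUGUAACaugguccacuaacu
miR-411-5p: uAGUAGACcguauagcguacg
miR-411-3p: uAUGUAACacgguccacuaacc
miR-299a-5p: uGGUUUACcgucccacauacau
miR-299a-3p: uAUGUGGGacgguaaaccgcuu
miR-376b-5p: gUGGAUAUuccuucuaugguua
miR-376b-3p: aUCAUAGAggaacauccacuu
miR-300-5p: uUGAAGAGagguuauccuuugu
miR-300-3p: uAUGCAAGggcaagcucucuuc
miR-381-5p: aGCGAGGUugcccuuuguauauu
miR-381-3p: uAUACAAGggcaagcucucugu
miR-154-5p: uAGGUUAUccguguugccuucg
miR-154-3p: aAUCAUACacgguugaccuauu
miR-541-5p: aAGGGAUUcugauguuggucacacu
miR-541-3p: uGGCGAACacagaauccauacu
miR-409-5p: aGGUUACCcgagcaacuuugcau
miR-409-3p: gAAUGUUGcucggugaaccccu
miR-369-5p: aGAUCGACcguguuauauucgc
miR-369-3p: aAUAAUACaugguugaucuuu
miR-410-5p: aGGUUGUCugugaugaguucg
miR-410-3p: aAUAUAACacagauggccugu
miR-1193-5p: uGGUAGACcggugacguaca
miR-299b-3p: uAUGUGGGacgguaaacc
miR-376c-5p: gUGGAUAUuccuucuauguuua
miR-494-5p: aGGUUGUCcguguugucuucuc
miR-376a-3p: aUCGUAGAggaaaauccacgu

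Resemblance between these sequences did not always extend to the seed. In the substitutions that follow, positions are counted from 1 at the 5′ end, with the base of the first-named miRNA first. The 3p arms of miR-379 and miR-411, hairpins that lie next to each other, matched at 20 of 22 positions (U10C and U22C) and had the same seed, whereas their 5p arms matched at 14 of 21 and differed inside the seed by G2A. The 3p arms of miR-381 and miR-300 matched at 19 of 22 positions, and 1 of the 3 differences, A4G, lay in the seed. An A4G difference also separated miR-376b-3p from miR-376a-3p, which matched at 18 of 21 positions. Adenosines in the miR-376 family are known targets of the ADAR editing enzymes, which convert A to inosine, read as G in sequencing; counts per hairpin hold no base calls, so editing was not measured here. The 3p arms of miR-154 and miR-369 matched at 17 of 21 positions and differed by C4A in the seed.

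RefSeq listed 73 mature sequences for the 39 members, with both arms for 34 of them, and these held 66 distinct seeds. Within the cluster 14 of the mature sequences shared a seed with another member's. The shared seeds among the sequences above were GGUAGAC in miR-379-5p and miR-1193-5p, AUGUAAC in miR-379-3p and miR-411-3p, AUGUGGG in miR-299a-3p and miR-299b-3p, UGGAUAU in miR-376b-5p and miR-376c-5p, and GGUUGUC in miR-410-5p and miR-494-5p. The hairpins were less rich in G and C than others, with a median GC content of 43.4% (29.1% to 72.3%) over the 37 member hairpins in RefSeq against 51.9% over the other hairpins. The word UUCGCUU, found after counting all short words in the hairpins on the given strand, occurred in 10 of 37 member hairpins (27.0%) and in 2 of 968 others (0.207%). The hairpins with this word were those of miR-154, miR-323, miR-329, miR-369, miR-377, miR-382, miR-410, miR-487b, miR-495 and miR-543, and hairpins related by duplication are not independent cases of it.

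The members spanned 38.9 kb, chr12:109709060-109747960, and all 39 matched a miRNA gene of the GENCODE mouse annotation. All lay on the plus strand except miR-299b, whose hairpin overlaps that of miR-299a on the opposite strand, so that the 39 hairpins formed 38 separate sets. In the distal part of the span, 14 members lay inside Mirg, a maternally expressed long noncoding RNA gene (109729764 to 109749460). Of these, 5 were intronic, 4 lay within an exon and 5 overlapped an exon in part. The other 25 members, from miR-379 to miR-544, lay in no annotated gene apart from miRNA genes. On the minus strand the annotation also places a predicted miRNA gene over miR-380 (Gm25750), miR-376a (Gm25252), miR-539 (Gm44322) and, inside Mirg, miR-409 (Gm24321). The sources used here do not say whether counting used the strand. In the proximal part of the same imprinted region, hairpins overlapping on opposite strands had nearly equal counts. For miR-337 these were 1101 in HC and 1310 in NC, and for miR-3544 1100 and 1308. Reads there were thus not separated by strand. Reads from the predicted genes and from the members they overlap cannot be told apart.

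The HC library held 31198050 counts over all precursors and the NC library 43848576. Levels are given as CPM of a library size scaled by the trimmed mean of M-values (TMM), and they are not divided by length, because a small RNA read covers a whole mature miRNA. In this scale 3 counts correspond to 0.0918 CPM in HC and 0.0717 CPM in NC, the limit that a count of 0 allows. Muscle identity was clear in both libraries. The 7 skeletal muscle miRNAs checked summed to 210888 CPM in HC and 256683 CPM in NC, of which miR-486a, also high in red blood cells, made up 141556 and 187306 CPM and miR-133a-1 65127 and 65383 CPM. The list did not move one way: miR-1a-1, miR-208b and miR-499 were higher in HC (log2 ratios 0.47, 0.55 and 0.63), while miR-486a and miR-133b were lower (−0.40 and −0.20). The 8 neuron and brain precursors, from tissue where the cluster is also high, summed to 18.9 CPM in HC and 29.7 in NC. None of this list was at 0 (miR-124-1 had 22 counts in HC and 34 in NC). Copies of 1 miRNA had near-equal counts: miR-9-1 and miR-9-2 each had 162 in HC and 347 in NC. The same reads may thus enter this sum more than once. The 5 fibroblast and mesenchyme precursors summed to 7580 CPM in HC and 6936 CPM in NC. This sum has the same limit, since miR-199a-1 and miR-199a-2 had 78965 and 79452 counts in HC. The lymphocyte miRNA miR-150 stood at 141.6 CPM in HC and 237.6 in NC. All 7 epithelial miRNAs were lower in HC (139.5 against 187.8 CPM in sum, log2 ratios of −0.88 to −0.20), and the erythrocyte miRNAs miR-144 and miR-451a were higher (608.8 against 467.9 CPM in sum, 0.62 and 0.32). The 2 myeloid miRNAs summed to 2124 CPM in HC and 2022 in NC and the endothelial miR-126a stood at 11407 and 11144 CPM, while the liver miRNA miR-122 was near the limit with 7 and 9 counts. The part of these cell types in the member differences was not tested, and in whole tissue fewer cells of a type and less RNA per cell cannot be told apart.

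As a whole the cluster differed little between the libraries. Its members summed to 64527 counts (1974 CPM) in HC and 87672 counts (2095 CPM) in NC, which was 0.2068% and 0.1999% of all precursor counts. The log2 ratio of HC to NC for the sum was −0.09 (−0.10 to −0.07), a ratio of 0.943, but it was 0.05 when plain library totals replaced TMM, so no direction can be given for the sum. Without the abundant miR-411 the cluster stood at 1050 CPM in HC and 1055 CPM in NC. That does not single out miR-411, because abundant members moved in both directions. In HC and NC, miR-411 stood at 924.2 and 1040 CPM, miR-381 at 197.7 and 307.8 CPM, and miR-541 at 431.4 and 349.6 CPM.

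Reads were concentrated in a few members. A count was present in both libraries for 38 members, and miR-453 had none in either. The mean reached 50 CPM for 5 members, 10 CPM for 11 and 1 CPM for 30, while 9 were below 1 CPM. In HC the leading member held 46.8% of the cluster's counts, the leading 4 held 87.5% and the leading 10 held 95.5%. The same shares in NC were 49.6%, 89.1% and 96.3%. The leading 10 were the same 10 miRNAs in both libraries, and 6 of them held the same place. Across the 38 members with counts, log2 CPM in HC and NC had a Pearson r of 0.960 and a Spearman rho of 0.985, given as a description of 2 libraries. The plot of levels along the chromosome shows that high and low members were interspersed.

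**Figure D1:**
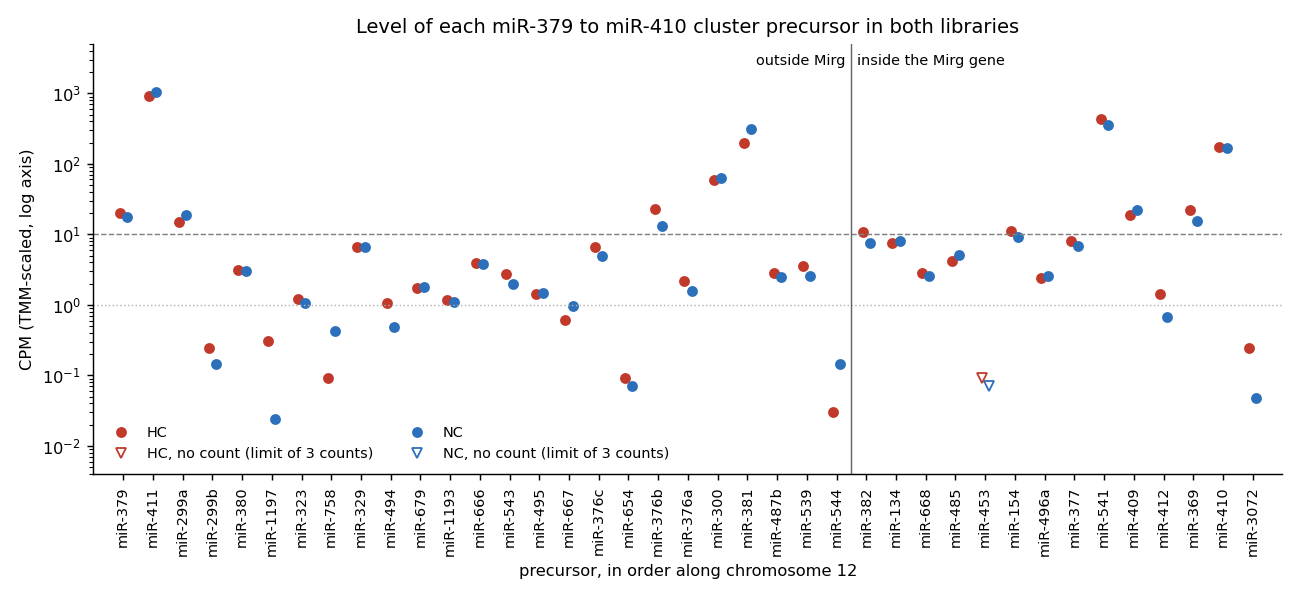
Level of each of the 39 precursors in HC (red) and NC (blue), in TMM-scaled CPM on a log axis, in order along chromosome 12, with dashed and dotted lines at 10 and 1 CPM and open triangles at the limit of 3 counts for miR-453. The members miR-411, miR-541, miR-381, miR-410 and miR-300 lie above 50 CPM in both libraries, and most pairs of points lie close together.

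Among the 11 members at 10 CPM or more, 5 were higher in HC and 5 lower with an interval that excluded equality, and miR-410 was neither. Such calls were common in libraries of this depth: of the 209 precursors compared at that level, counting 1 per set of overlapping hairpins, 38.8% were called higher and 44.5% lower. The balance of the members' calls turned with the scaling. It became 6 higher and 3 lower with plain library totals, and 3 higher and 6 lower with the denominators of the authors' scaled column. Background shares were computed with TMM only. No member differed by 2-fold or more, where 1.44% of all precursors were at least 2-fold higher and 0.957% at least 2-fold lower. At 1.5-fold, miR-376b alone was higher (1 of 11 members, background 2.87%) and miR-381 alone was lower (1 of 11, background 4.78%). The median log2 ratio of the 11 members was 0.04, with a range of −0.64 to 0.80, against −0.01 over all 209. Their standard deviation of 0.41 was close to the 0.39 of the 147 other precursors that lay between 10 CPM and the level of miR-411.

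The sign of a small ratio depended on the scaling. Relative to TMM, plain library totals moved every log2 ratio by 0.13, and the denominators of the authors' own scaled column moved it by −0.11. Under all 5 scalings tried, the interval stayed above equality for miR-376b, miR-541 and miR-369 and below it for miR-411, miR-299a and miR-381, while the other 5 of the 11 kept no side throughout. To set scaling aside, each member was also compared with the rest of the cluster in the same library. On that measure 6 of the 11 were higher in HC relative to the rest (miR-379, miR-376b, miR-154, miR-541, miR-369 and miR-410). A further 4 were lower (miR-411, miR-299a, miR-381 and miR-409), and miR-300 did neither. For the other members the rest includes miR-411 and miR-381, both lower in HC, which raises them on this measure. For miR-410 the value was 0.14 (0.09 to 0.19), against 0.04 with TMM. No background share was computed for this measure or for the calls under all 5 scalings.

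**Figure D2:**
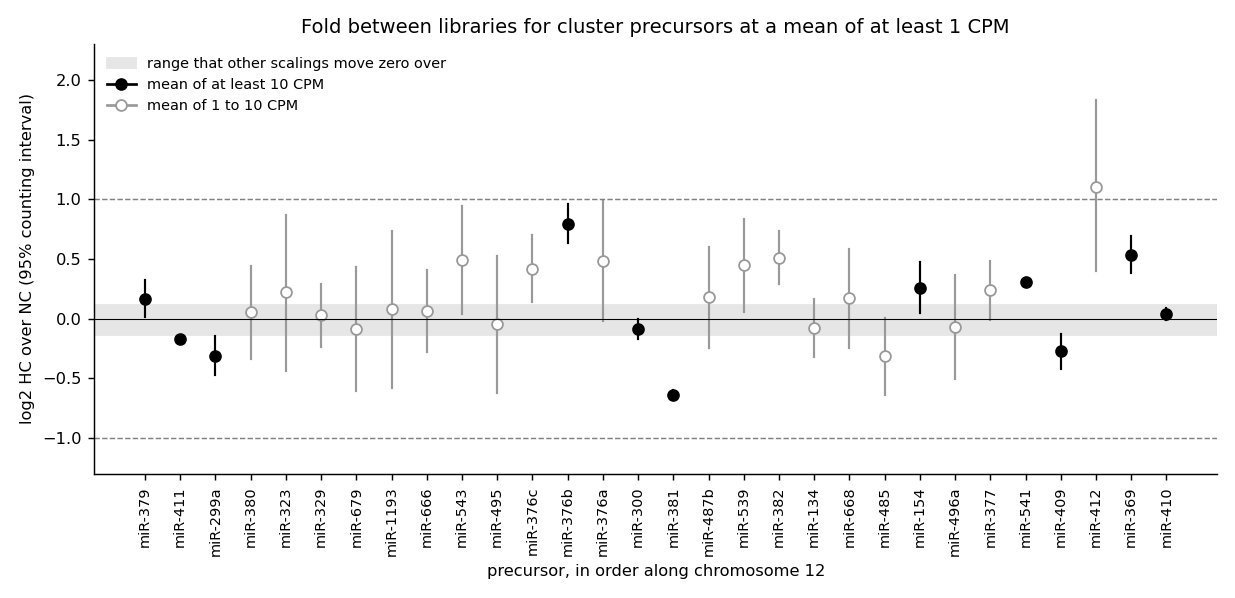
Log2 ratio of HC to NC (points) with 95% intervals of counting error (bars) for the 30 members with a mean of at least 1 CPM; the shaded band is the range over which other scalings move equality. The points of miR-376b and miR-412 lie farthest above 0 and that of miR-381 farthest below.

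The most abundant member was miR-411 (109710175 to 109710256), which has been linked to muscle progenitor cells. It had 30205 counts in HC and 43521 in NC, or 924.2 and 1040 CPM, and ranked 53rd and 50th among all precursors. Its log2 ratio was −0.17 (−0.19 to −0.15), and its share of the cluster was 46.8% in HC and 49.6% in NC. The ratio was small under every scaling, from −0.28 to −0.04. Its neighbours miR-379 and miR-299a lie within 1049 and 381 bases of it. The first, miR-379, stood at 20.1 CPM in HC and 17.9 in NC, a log2 ratio of 0.17 (0.01 to 0.32) that exceeded that of miR-411 by 0.34 (0.19 to 0.49). The second, miR-299a, stood at 15.0 and 18.6 CPM, a log2 ratio of −0.31 (−0.47 to −0.14). The difference between miR-411 and miR-299a was 0.14 (−0.03 to 0.30), so counting error did not separate these neighbours. The overlapping miR-299b had 8 counts in HC and 6 in NC, the mature arms of miR-299a reaching 1 and 4 bases beyond the miR-299b hairpin.

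The second member by level was miR-541 (109742409 to 109742498), in an intron of Mirg. It had 14100 counts in HC and 14632 in NC, which at the different depths gave 431.4 and 349.6 CPM and a log2 ratio of 0.30 (0.27 to 0.34). Its share of the cluster was 21.9% in HC and 16.7% in NC. In HC it ranked second in the cluster by a wide margin over miR-381, whereas in NC the margin was narrow. Relative to the rest of the cluster its log2 ratio was 0.48 (0.44 to 0.52).

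Of the 11 members at 10 CPM or more, the lowest ratio was that of miR-381 (109726822 to 109726896). It had 6461 counts in HC and 12883 in NC, or 197.7 and 307.8 CPM, a 1.56-fold lower level in HC (log2 ratio −0.64, −0.68 to −0.60). Its share of the cluster was 10.01% in HC and 14.7% in NC, and its rank among all precursors was 101st in HC and 86th in NC. Its sequence relative miR-300, which lies 2430 bases upstream and differs from it by A4G in the 3p seed, stood at 59.5 CPM in HC and 63.3 in NC and held 3.02% of the cluster in both. The log2 ratio of miR-300 exceeded that of miR-381 by 0.55 (0.46 to 0.64). For miR-381 the direction held under every scaling (−0.75 to −0.50), although plain totals placed it under 1.5-fold. For miR-300 the log2 ratio was −0.09 with TMM and 0.05 with plain totals.

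The remaining member above 50 CPM, miR-410 (109743715 to 109743795, within an exon of Mirg), had 5718 counts in HC and 7107 in NC. These gave 175.0 and 169.8 CPM, and the interval of its log2 ratio held 0 (0.04, −0.01 to 0.09). Its hairpin lies 218 bases from that of miR-369, a miRNA reported to promote translation through AU-rich elements in quiescent cells. By contrast miR-369 stood at 22.2 CPM in HC and 15.3 in NC, a log2 ratio of 0.54 (0.38 to 0.69) that exceeded that of miR-410 by 0.49 (0.33 to 0.66). Further upstream by 181 bases, miR-409 stood at 18.5 and 22.4 CPM and went the other way, with a log2 ratio of −0.27 (−0.42 to −0.13). Members at this level formed 10 pairs in order along the chromosome, 181 to 12757 bases apart and some with less abundant members between. The ratio differed beyond counting error in 8 of these pairs. No such share was computed for other pairs of precursors. At this level 38.8% of all precursors were called higher and 44.5% lower, so differing ratios were common. The remaining member at this level, miR-154, in an intron of Mirg, had 359 counts in HC and 384 in NC, or 11.0 and 9.17 CPM (log2 ratio 0.26, 0.05 to 0.47), and its interval did not stay above 0 under every scaling.

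**Figure D3:**
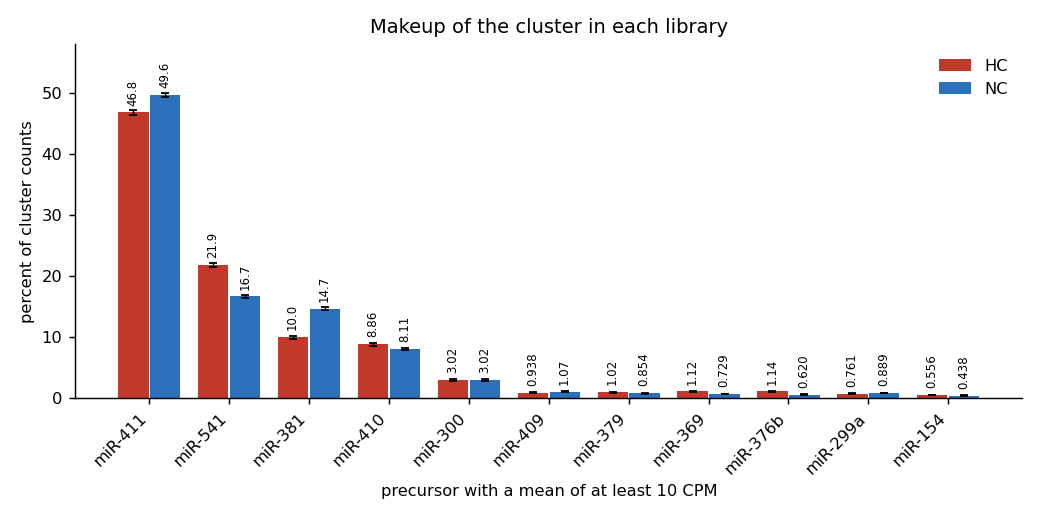
Percent of the cluster's counts held by each of the 11 members with a mean of at least 10 CPM, in HC (red) and NC (blue), with exact 95% binomial intervals of counting error. The share of miR-541 is 21.9% in HC and 16.7% in NC, and that of miR-381 is 10.01% and 14.7%.

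The summed level of the miR-376 family was higher in HC. The hairpin of miR-376b (109723458 to 109723539) had 738 counts in HC and 544 in NC although HC was the shallower library, or 22.6 and 13.0 CPM. This was a 1.74-fold difference (log2 ratio 0.80, 0.64 to 0.96), the highest ratio among the 11 members, and it held under every scaling (0.68 to 0.93). Its relatives were less abundant and had ratios in the same direction. The level of miR-376c was 6.64 CPM in HC and 4.97 in NC (log2 ratio 0.42, 0.14 to 0.70), and that of miR-376a was 2.17 and 1.55 CPM (0.48, −0.02 to 0.99), an interval that held 0. Summed, the 3 hairpins gave 31.4 CPM in HC and 19.5 in NC, a log2 ratio of 0.69 (0.55 to 0.82). Because the arms of these hairpins are so alike, reads may be divided between them in ways the counts do not show, and the sum is less subject to this than each member.

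Among 19 members between 1 and 10 CPM, 5 were higher in HC beyond counting error and none was lower. They were miR-376c, miR-543 (90 and 82 counts, log2 ratio 0.49, 0.04 to 0.94), miR-539 (3.55 and 2.60 CPM, 0.45, 0.06 to 0.84), miR-382 (10.9 and 7.62 CPM, 0.51, 0.29 to 0.73) and miR-412 (47 and 28 counts, 1.10, 0.40 to 1.83). The median log2 ratio of these 19 was 0.17, against −0.12 for the 93 other precursors in that range, of which 15 were higher and 26 lower. Their standard deviation was 0.32, against 0.69 for the others. That background lists copies of 1 miRNA separately, such as miR-9-1 and miR-9-2 (both −0.74) and several copies of miR-467a (−0.56 each). The same reads may thus enter its median and its lower calls more than once. The intervals of the other 14 members held 0, and 3 of the higher members, miR-376c, miR-382 and miR-412, kept their side under all scalings.

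Several of the members with intervals that held 0 have known roles. In neurons miR-134 limits dendritic spine growth through Limk1, and here it stood at 7.65 CPM in HC and 8.08 in NC (−0.08, −0.32 to 0.16). Also known from synapses is miR-485, which had 135 and 215 counts (−0.31, −0.64 to 0.00). The level of miR-377 was 8.17 and 6.93 CPM (0.24, −0.01 to 0.48). At 3.95 and 3.77 CPM, miR-666 had a ratio near equality (0.06, −0.28 to 0.41), as did miR-380 at 3.15 and 3.03 CPM (0.05, −0.33 to 0.44). At 1 to 3 CPM the intervals were wider than 0.8 on the log2 scale: miR-668 had 94 and 107 counts in HC and NC (0.17), miR-496a 79 and 106 (−0.07), miR-679 56 and 76 (−0.08), miR-323 40 and 44 (0.22) and miR-1193 38 and 46 (0.08).

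The 4 members with a reported role in blood flow recovery were low in both libraries and did not share a direction. The most abundant, miR-329, had 218 counts in HC and 274 in NC, or 6.67 and 6.55 CPM (log2 ratio 0.03, −0.24 to 0.29). For miR-487b the counts were 91 and 103 (0.18, −0.24 to 0.60) and for miR-495 they were 47 and 62 (−0.04, −0.62 to 0.53). Only miR-494 was higher in HC beyond counting error, with 35 counts in HC and 20 in NC, or 1.07 and 0.478 CPM (1.16, 0.33 to 2.03). A 1.5-fold difference (0.58 on the log2 scale) lies within the interval of miR-487b when higher and within that of miR-495 when lower. Counting error thus does not exclude a difference of that size for these 2 members. This set of 4 was taken from background knowledge after the values were known.

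Taking all 30 members at 1 CPM or more, 10 were called higher by their interval (background 31.5% of 321 precursors) and 5 lower (background 37.1%). These calls became 13 higher and 3 lower with plain totals, and 6 higher and 7 lower with the authors' denominators. At 1.5-fold 2 were higher, miR-376b and miR-412 (background 4.36%), and 1 was lower, miR-381 (background 6.54%). With plain totals 6 were higher at 1.5-fold, adding miR-369, miR-382, miR-543 and miR-376a, and none was lower. The backgrounds given here are those of TMM. None was computed for the other scalings, which shift all precursors alike. At 2-fold miR-412 was higher (background 2.49%) and none was lower (background 1.56%). The mean of miR-412, 1.05 CPM, lies just above the filter, and with the authors' denominators its log2 ratio of 0.99 fell short of 2-fold. The log2 ratio was above 0 for 20 members and below 0 for 10 with TMM, but for 25 and 5 with plain totals and for 15 and 15 with the authors' denominators. The median over the 30 was 0.12, against −0.01 over all 321.

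**Figure D4:**
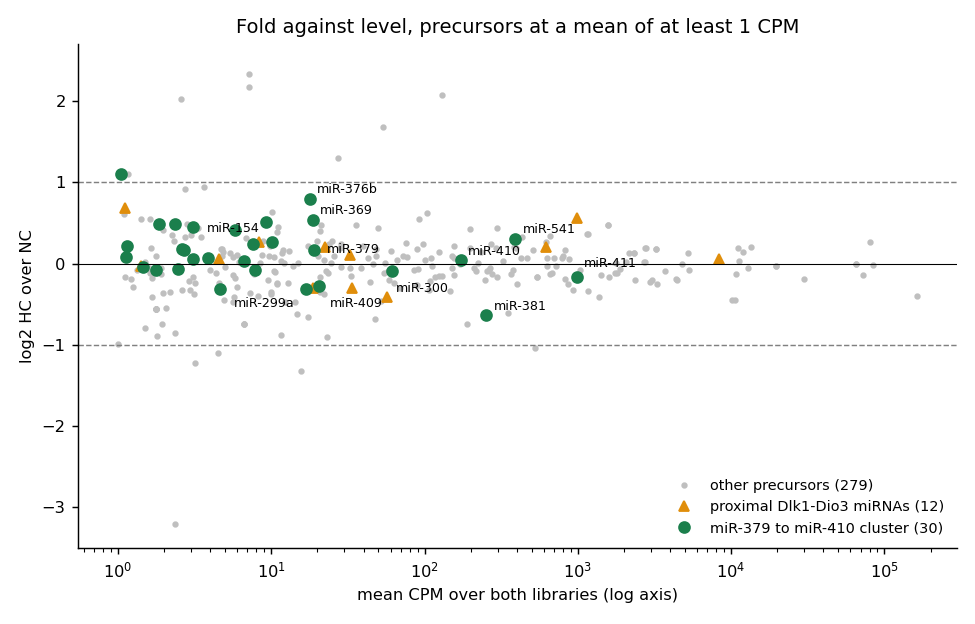
Log2 ratio of HC to NC against the mean level in CPM (log axis) for every precursor that averaged 1 CPM or more: the 30 cluster members (green circles), 12 proximal Dlk1-Dio3 miRNAs (orange triangles) and 279 others (grey), with dashed lines at 2-fold. Of the cluster members miR-412 lies above the upper line, and the rest lie between the lines.

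Below 1 CPM, counts were too few to describe a level well. Apart from miR-494, miR-299b and miR-453, this group held miR-1197 (10 counts in HC and 1 in NC, a ratio of 12.8 with an interval of 1.82 to 556), miR-758 (3 and 18), miR-667 (20 and 40), miR-544 (1 and 6), miR-3072 (8 and 2) and miR-654 (3 and 3). The ratio for miR-758 was 0.213 (0.0403 to 0.731) and that for miR-3072 was 5.12 (1.02 to 49.5). For miR-667 it was 0.640 (0.355 to 1.12), which includes equality. At these low counts miR-1197 and miR-758, which flank miR-323, had opposite ratios.

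Members inside Mirg and those outside it were summed separately. The 14 inside summed to 695.8 CPM in HC and 599.8 in NC, a log2 ratio of 0.21 (0.19 to 0.24). The 25 outside summed to 1279 and 1495 CPM, a log2 ratio of −0.23 (−0.24 to −0.21). The difference of 0.44 (0.41 to 0.47) needs no scaling, but it rested on 3 members. It was 0.31 without miR-541 and 0.35 without miR-381. Without miR-541 and miR-411, the most abundant member of each group, it stayed at 0.44 (0.39 to 0.49). Without miR-541, miR-411 and miR-381 together it was −0.0095. At 1 CPM or more the medians were closer, at 0.20 over the 12 members inside Mirg and 0.07 over the 18 outside. At 10 CPM or more they lay farther apart, at 0.26 over 5 members inside and −0.13 over 6 outside.

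The proximal miRNAs of the same imprinted region, 21 precursors taken by position from miR-1906-1 to miR-882, were more abundant. Some lie over Rtl1 and others in Meg3, in Rian or in no annotated host gene. They summed to 10526 CPM in HC and 9772 CPM in NC, with miR-127 alone at 8523 and 8212 CPM. Their summed log2 ratio was 0.11 (0.10 to 0.11), so that the sum of the miR-379 to miR-410 cluster was lower relative to it by 0.19 on the log2 scale (−0.19, −0.21 to −0.18). That value depended on the abundant miRNAs. Without miR-411 and miR-127 it was −0.37, and without miR-434, which stood at 1168 CPM in HC and 794.1 CPM in NC, it was −0.15. Over members at 10 CPM or more, the medians were 0.04 for the 11 distal and 0.08 for the 8 proximal miRNAs, whose ratios ran from −0.41 to 0.56.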

How the data were processed

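Small RNA from hindlimb muscle was extracted with Trizol and a mirVana kit and sequenced from TruSeq small RNA libraries, per the labels' protocols. Tools named in the submitters' processing notes are HTSeq 0.5.4, TopHat2 2.0.10 and CASAVA 1.8.2, with the build mm10. The sources used here do not say how adapters were trimmed, how multiply aligned reads were handled or which miRNA annotation was used. Copies of 1 miRNA at different loci had near-equal levels, such as miR-133a-1 and miR-133a-2 (means of 65255 and 65242 CPM). The same reads may thus be counted at each copy, and the background precursors include such copies separately. The deposited values were whole-number read counts per hairpin, with no separation of arms, so closely related hairpins may share reads. The authors also deposited a scaled signal, headed RPM, that is a fixed multiple of the count in each library. It summed to 1146026 in HC and 1359554 in NC over precursors. Its denominators, worked out from counts and scaled values as 27222821 and 32252170, are thus not the precursor totals. What they count is not given, and the signal was used only as an alternative scaling.

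Library sizes were scaled by TMM over all precursors (edgeR 4.0.16 in R 4.3.3). With 1 library per group, no test was run. The ratio of HC to NC was given with an exact conditional binomial 95% interval of counting error (SciPy 1.17.1), shares with a Clopper-Pearson interval, and differences between members and sums with a normal interval on the log scale. A call needs an interval that excludes equality, with a fold of at least 2 or 1.5 where stated, among hairpins with a mean of at least 10 CPM (or 1 CPM), 1 per set of overlapping hairpins. The interval calculation was tested on simulated Poisson counts with known folds. Those counts hold counting error only, so the test cannot show how well the intervals cover other error in these data. Alternatives were plain totals, DESeq2 1.42.0 size factors, the authors' denominators, totals without the 10 most abundant precursors, other filters (1 CPM, 50 CPM, none), every overlapping hairpin kept, and leaving out abundant members. Every member was named, those at 1 CPM or more with both levels or counts and those below with counts. The members, the marker lists and the comparisons were chosen with earlier results of these data known. Promoters and proteins were not used here.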

Additional observations from a re-analysis of the deposited data

Results flagged for a closer look

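Reads that the deposited summary assigns to no precursor were a larger part of the HC library (55.9% of its listed counts) than of the NC library (44.1%). They entered no comparison of the cluster.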

How the results depend on the processing

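No paired analysis was possible because each group has 1 library, and for the same reason no replicate could be left out. DESeq2 size factors and keeping every overlapping hairpin moved no result beyond its error, and of the 30 members at 1 CPM or more all 30 stayed within their intervals with DESeq2 size factors and with totals that left out the 10 most abundant precursors. With plain totals 25 stayed, 4 moved and 1 reversed (miR-300, −0.09 to 0.046); with the authors' denominators 25 stayed and 5 moved. The log2 ratio of the cluster sum, −0.09, became 0.049 with plain totals, −0.20 with the authors' denominators, −0.069 without the 10 most abundant precursors and −0.0064 without miR-411. The median of 0.04 at 10 CPM became 0.18 with plain totals, −0.069 with the authors' denominators, 0.12 at 1 CPM or with no filter, and −0.089 at 50 CPM. No member was past 2-fold in either direction at 10 CPM. At 1 CPM 1 was higher, and with no filter 4 were higher and 1 lower. No background share was computed with no filter. Past 1.5-fold, 1 was higher and 1 lower; the higher count became 2 with plain totals, 2 at 1 CPM, 5 with no filter and 0 at 50 CPM, and the lower count became 0 with plain totals and 2 with no filter. The difference from the proximal miRNAs, −0.19, became −0.37 without miR-411 and miR-127 and −0.15 without miR-434. The difference of members inside and outside Mirg, 0.44, became 0.35 without miR-381 and 0.31 without miR-541. It stayed at 0.44 without miR-541 and miR-411, and became −0.0095 without miR-541, miR-411 and miR-381. The Mirg and miR-434 alternatives were chosen after seeing the data. The filters change which members count and the scalings shift all ratios alike; no other cause was tested. Depth limits members with under 100 counts, whose intervals span more than 1.5-fold.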

Other observations

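Some members share a seed with miRNAs outside the cluster, and 10 of the 73 mature sequences did so. For miR-329-3p the seed ACACACC recurs in miR-362-3p, from an X-linked hairpin that stood at a mean of 10.4 CPM, close to the 6.61 CPM of miR-329, with a log2 ratio of HC to NC of −0.09 against 0.03. The seed of miR-377-5p, GAGGUUG, recurs in miR-672-5p (mean 1.41 CPM, log2 ratio 0.55), that of miR-1193-3p, AGGUCAC, in miR-370-5p of the proximal region (mean 1.12 CPM, 0.68), and that of miR-412-3p, UCACCUG, in miR-1983 (mean 3.32 CPM, 0.44). Arms were not counted separately, so these values are of hairpins and not of the arms with the shared seed.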
